A study of Mus musculus with 4 samples.

Results

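The NMDA receptor subunit genes Grin1, Grin2a and Grin2b carried 145 of the 28412 sites of C-to-U editing listed for young mouse cortex. Members were all sites listed under these 3 gene symbols, whatever their position or value: 97 for Grin2b, 26 for Grin2a and 22 for Grin1. The mice carried APOBEC1-YTH, a cytidine deaminase joined to the YTH domain that binds N6-methyladenosine (m6A), or APOBEC1-YTHmut, the same fusion with a mutated YTH domain as its control. They were 6 to 8 weeks old at the first tamoxifen dose, received 20 mg/kg every 24 h for 5 days, and the cortex was taken 7 days after the last dose, dissociated with papain and barcoded by split pooling for single-cell sequencing. Cells of both genotypes and of replicates 1 and 2 were pooled, and the 4 samples are sublibraries of that pool. The labels do not say which cells express the fusions or which promoter drives them. The site list names no sample, genotype or cell, so it is 1 list without replicates or controls, and no p-value was computed for any difference below.

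NMDA receptors are glutamate-gated channels that let calcium into the postsynaptic neuron and trigger lasting changes of synaptic strength. Each receptor needs the GluN1 subunit, encoded by Grin1, which binds the co-agonist glycine or D-serine. The GluN2A and GluN2B subunits, encoded by Grin2a and Grin2b, bind glutamate and set channel kinetics, and forebrain synapses shift from GluN2B towards GluN2A as they mature. In both GluN2 genes the last coding exon encodes most of the long intracellular tail, which docks scaffolds and CaMKII. The fusion edits cytosines next to m6A, which methyltransferases place mainly in the consensus DRACH, with D for A, G or T, R for A or G, and H for A, C or T. The core of that motif is called RAC below, where the C is the listed cytosine.

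The sequences that follow surround the sites that lead each gene. They are the 3 sites of highest count in each gene, and in Grin2b also the next sites of the 5' untranslated region (UTR) and the leading coding site. All 3 genes lie on the minus strand. Each line gives the window in mm10 and the transcript sequence from GENCODE M21, 5′ to 3′, with the listed C and the 2 bases before it in capitals.
Grin2b 5' UTR, chr6:136171739-136171759: gaaaagagAACccaaccctta
Grin2b 5' UTR, chr6:136171734-136171754: gagaacccAACccttaattgc
Grin2b 5' UTR, chr6:136171800-136171820: cacacagaGACtcctctacta
Grin2b 3' UTR, chr6:135729489-135729509: aaaaagttAACgggaacagaa
Grin2b 3' UTR, chr6:135714354-135714374: tctactgaGACttcccttgct
Grin2b coding, chr6:135732166-135732186: tgcctaacAACaaaaacccca
Grin2a 3' UTR, chr16:9572365-9572385: ctgtagggAACgggcactgtg
Grin2a 3' UTR, chr16:9573606-9573626: gaaagaaaGACagaaaagaga
Grin2a 3' UTR, chr16:9576618-9576638: ccacccccAACcccagcaccc
Grin1 coding, chr2:25295803-25295823: cagccgtgAACgtgtggagga
Grin1 3' UTR, chr2:25291577-25291597: cctcccacGACccttcccacc
Grin1 3' UTR, chr2:25291625-25291645: tgcaacctGACttccacctct
Among listed sites with sequence, none outside RAC had a count above 3, so these 12 windows, chosen for high counts, all had to have the RAC core. Of the 9 that hold the 3 highest counts of their gene, 4 also meet DRACH, 3 miss it through a G after the listed C, and 2 through a C before the core. The leading sites of Grin1 and Grin2a share the 5 bases GAACG.

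The list gives each site a whole number, called its site count here. The sources do not say what it counts, and it cannot be divided by read depth, which is not in the list. At a low count or an unlisted cytosine, few reads and little editing therefore cannot be told apart, and counts are not levels of methylation or of expression. The counts ran from 3 to 133 over the member sites and from 3 to 3538 over the whole list, with a median of 4 in both. Percentages of sites below carry exact binomial (Clopper-Pearson) 95% intervals, which cover counting error only and treat neighbouring sites as independent, which they need not be.

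Of the 7 annotated NMDA receptor genes, 4 had a listed site, while 17.6% of all annotated protein-coding genes had one. Grin2c, a subunit best known from the cerebellum, had 2 sites with a count of 3 each, and Grin2d, Grin3a and Grin3b had 0. The 4 AMPA receptor genes, which encode the fast glutamate receptors, all had sites, with 24 in Gria1, 95 in Gria2, 65 in Gria3 and 1 in Gria4. Among the 7 kainate and delta receptor genes 3 had a site, and the most was 5 in Grik5. Grin2b thus had the most sites of the 18 ionotropic glutamate receptor genes, followed by Gria2. Per kb of annotated exon, however, Grin2b had 3.90 sites, Grin1 2.27 and Grin2a 1.45, against 6.59 in Gria3, 6.11 in Gria2 and 3.97 in Gria1. The median over all listed symbols was 0.456 sites per kb. Annotated exon here joins the exons of all transcripts, and the order of the genes depends on that choice. For Grin1 it is 9700 nt, against 4276 nt in the longest coding transcript, and for Grin2b 24842 against 24060 nt. By region of that transcript, Grin1 had 3.82 sites per kb of coding sequence and 7.58 of 3' UTR, against 4.05 and 3.39 in Grin2b. Of 28 NMDA receptor partners (scaffolds, kinases and other signalling genes of the receptor complex) 21 were listed, and these had 17 sites at the median. The kinase gene Camk2a had 81 of these sites, and the scaffold gene Dlg4, which encodes PSD-95, had 20.

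**Figure D1:**
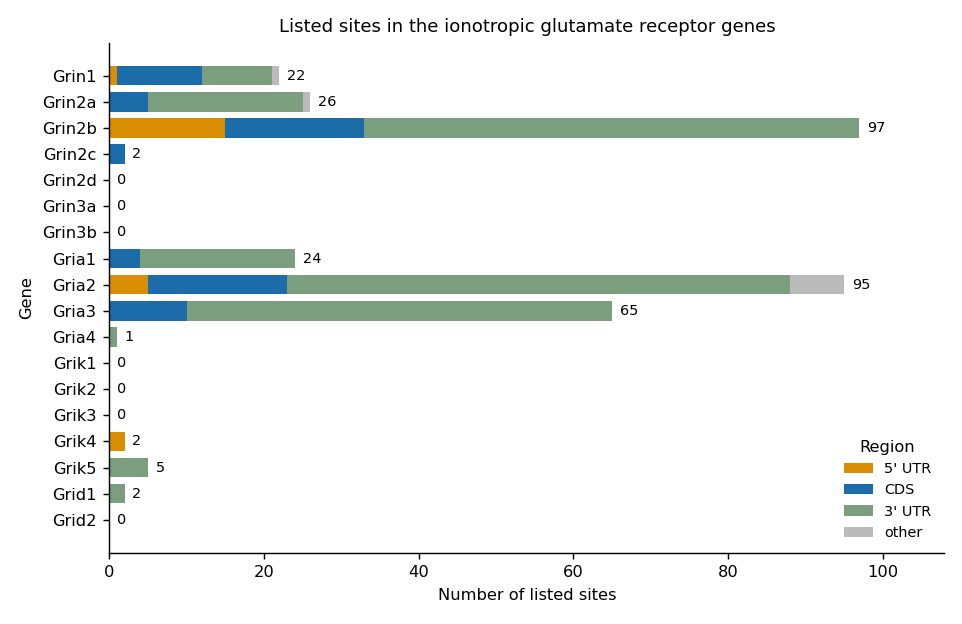
Number of listed sites (horizontal axis) for each ionotropic glutamate receptor gene, coloured by transcript region, with the total at the end of each bar. Grin2b has 97 sites with 15 in the 5' UTR, and of the other genes Gria2 comes nearest with 95.

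The 3 transcripts differ most in their 3' UTR. The longest coding transcript of Grin2b (Grin2b-201) is 24060 nt long, of which the 3' UTR takes 18865 nt, and that of Grin2a (Grin2a-206) is 14634 nt with a 3' UTR of 9929 nt. For Grin1 the longest is Grin1-204, with 4276 nt and a 3' UTR of 1187 nt. In Grin2b 64 of 97 sites lay in the 3' UTR, or 66.0% (95% interval 55.7 to 75.3), and in Grin2a 20 of 26, or 76.9% (56.4 to 91.0). Grin1 had 9 of 22 there, or 40.9% (20.7 to 63.6), against 61.9% (61.4 to 62.5) of all other listed sites. The coding sequence (CDS) held 18 sites of Grin2b, 18.6% (11.4 to 27.7), 5 of Grin2a, 19.2% (6.55 to 39.4), and 11 of Grin1, 50.0% (28.2 to 71.8). All other sites had 26.1% (25.5 to 26.6) in the CDS. The 2 GluN2 genes thus had intervals that include the list's shares of 3' UTR and CDS, and for Grin1 the CDS interval lay above the list's share with all sites counted. That did not hold with other choices of sites: the CDS held 8 of 16 Grin1 sites (24.7 to 75.3) with RAC sites only and also with sites within 10 nt merged, and 5 of 12 (15.2 to 72.3) at a count of 4 or more. The list's shares under these choices were 26.8%, 28.2% and 24.3%, all inside the Grin1 intervals. The remaining sites were 15 in the 5' UTR of Grin2b, 1 in the 5' UTR of Grin1, and 1 each of Grin1 and Grin2a in exons of noncoding transcripts.

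**Figure D2:**
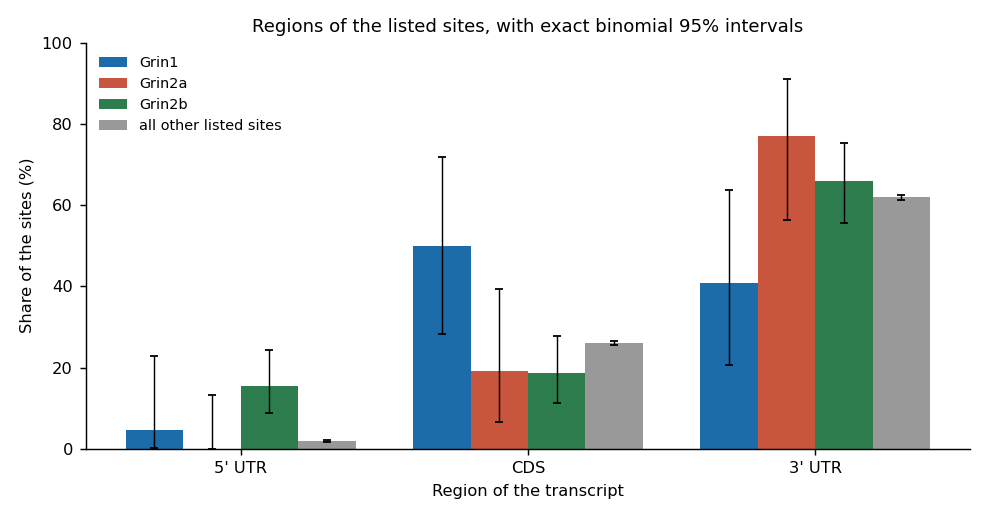
Share of listed sites (vertical axis, percent) in the 5' UTR, CDS and 3' UTR for Grin1, Grin2a, Grin2b and all other listed sites, with exact binomial 95% intervals. In the 5' UTR the bar of Grin2b stands at 15.5%, and that of all other sites at 1.95%.

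The 5' end of Grin2b held a dense group of sites. Its 5' UTR had 15 sites, while that of Grin1 had 1, at a count of 5, and that of Grin2a 0. A Grin2a site with a count of 3, at position 9995208, lay upstream of Grin2a-206 in an exon of a noncoding transcript. The 15 sites were 15.5% of the Grin2b total (8.92 to 24.2), against 1.95% (1.79 to 2.12) of all other listed sites. This end of Grin2b was singled out with earlier results of these data known, so its share and rank describe it and test nothing. Of the 272 symbols with any 5' UTR site the median had 1, and only Tulp4 with 25 and Syt1 with 16, named here after their values were seen, had more than Grin2b. Per kb of 5' UTR this came to 20.1 sites in Grin2b, against 4.05 per kb in its CDS and 3.39 per kb in its 3' UTR, while the same 3 densities over all listed coding genes were 0.441, 0.930 and 1.70 per kb.

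Within that group, the sites lay in the first 2 exons. Exon 1 (chr6:136172865-136173125) carried 4 sites, at 198, 203, 214 and 216 nt from the transcript start, with counts of 7, 3, 7 and 3. Exon 2 (chr6:136171416-136171882) carried 11. The first of them, at 270 nt, stood 8 nt from the exon junction and had a count of 15, and the next at 272, 284, 302 and 307 nt had counts of 3, 13, 9 and 3. Further along exon 2, sites at 334 and 336 nt had counts of 20 and 3. The peak followed at 395 nt, position 136171749, with a count of 133. It was the highest count in any of the 3 genes and stood in the context GAACC of the sequence shown above. A count of 3 at 396 nt and one of 40 at 400 nt directly followed it, and the last 5' UTR site, at 560 nt, had 7. Beyond the start codon the only further site within the first 1000 nt was at 977 nt in exon 3, with a count of 5. The highest counts thus lay in the upstream part of exon 2, and a single site was listed between 400 nt and the start codon.

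**Figure D3:**
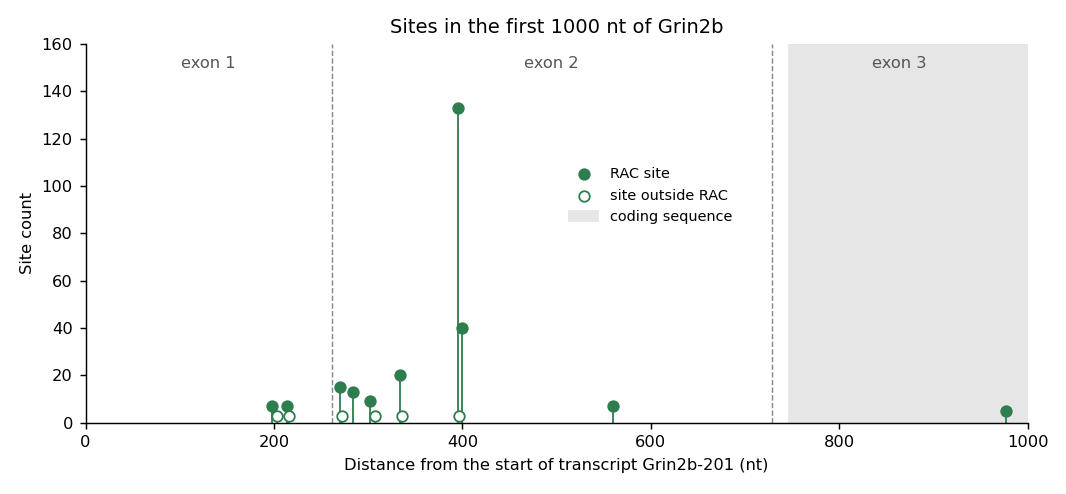
Site count (vertical axis) against distance from the start of transcript Grin2b-201 (horizontal axis, nt) for the 16 sites in the first 1000 nt of Grin2b, with exon borders dashed and the coding sequence shaded. Filled points are RAC sites, and the point at 395 nt reaches 133 while the open points, outside RAC, stand at 3.

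The 15 sites of the Grin2b 5' UTR had a median count of 7, against 4 over the 568 sites in 5' UTRs across the list. A count of 133 or more was found at 6 of the 568, the Grin2b site included. Of the 15 sites, 9 lay in RAC, and all 9 had a count of 4 or more. The 6 outside RAC had a count of 3, as did every listed site with sequence outside RAC. The 5' UTR of Grin2b-201 has 22 RAC cytosines, and 9 of them were listed, or 40.9% (20.7 to 63.6). In exon 2 alone 7 of 13 were. None of the 8 RAC cytosines in the 5' UTR of Grin2a was listed, where the interval reaches 36.9%, and in Grin1 1 of 4 was. Over the longest coding transcripts of all listed genes 1.51% of the 5' UTR RAC cytosines were listed. This and the later shares over all listed genes pool genes with a median of 2 sites per symbol. In the first 1000 nt of their transcripts, Grin1 had 4 sites with a highest count of 7, and Grin2a had 1 site with a count of 3. Neither gene thus had a count above 7 in that stretch, where Grin2b reached 133.

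**Figure D4:**
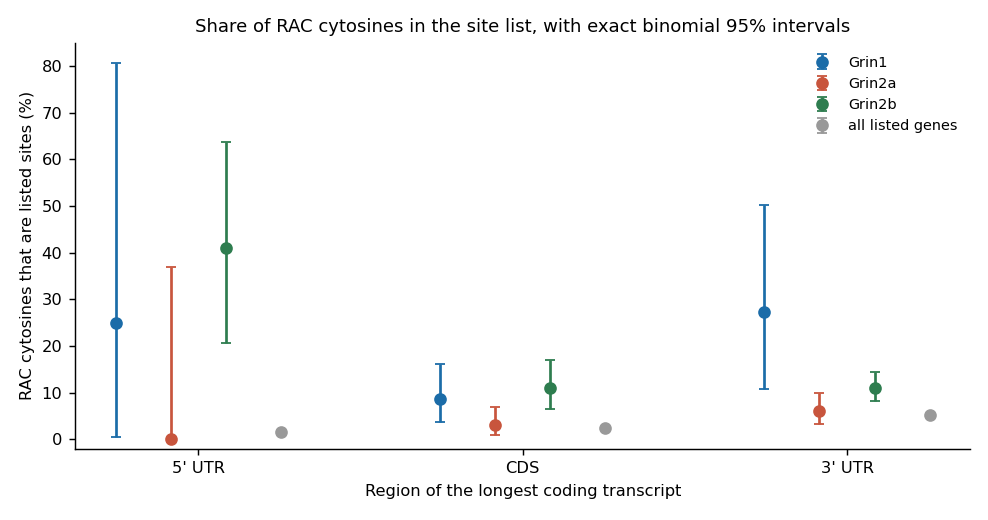
Share of RAC cytosines of the longest coding transcript that appear in the site list (vertical axis, percent), by region, for Grin1, Grin2a, Grin2b and all listed genes together, with exact binomial 95% intervals. Grin2b stands at 40.9% in the 5' UTR, 11.0% in the CDS and 11.1% in the 3' UTR, and all listed genes at 1.51%, 2.42% and 5.34%.

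In the coding sequence the GluN2 genes had most of their sites in the last exon, which for Grin2a rests on 5 coding sites. Exon 14 of Grin2b (chr6:135713233-135733948) held 16 of the 18 coding sites, between 1794 and 78 nt before the end of the stop codon, although its coding part makes up 41.6% of the CDS. Exon 14 of Grin2a (chr16:9567898-9579626) held 4 of 5, in a stretch from 1584 to 1488 nt before that point, with 41.0% of the CDS. The coding part of the last exon has similar numbers of RAC cytosines in both genes, 78 in Grin2b and 75 in Grin2a. Of these, 15 were listed in Grin2b, or 19.2%, and 4 in Grin2a, or 5.33%, with no interval computed for either share. In the coding part before it, 2 of 76 RAC cytosines were listed in Grin2b and 1 of 90 in Grin2a. Across all listed genes 2.42% of the RAC cytosines of the whole CDS were listed. No share was computed for the coding part of their last exons alone.

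Counts in the Grin2b tail were modest. The leading pair lay 78 and 81 nt before the end of the stop codon, with 23 and 20, and another pair at 1770 and 1773 nt had 11 and 19. The other 12 coding sites of exon 14 had counts from 3 to 7. In the tail of Grin2a the counts were 3, 4, 8 and 5, in the order of the transcript. Between exon 5 and exon 13, which encode most of the glutamate-binding and pore-forming parts, neither Grin2b nor Grin2a had a site. Exons without a site numbered 9 of 14 in Grin2b, with 49 RAC cytosines, and 12 of 14 in Grin2a, with 80. The 2 coding sites of Grin2b outside exon 14 had counts of 5 and 3, and that of Grin2a, in exon 3, had 3.

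Grin1, with 21 mostly short exons, had coding sites in more places. Exon 19 (chr2:25295792-25295937), which is not the last coding exon, carried a single site with a count of 59, the highest of the gene, at position 25295813. It stood 249 nt before the end of the stop codon. Exon 7 had 1 site with 11, exon 2 had sites of 7 and 3, and exon 1 a coding site of 3. In exon 20 there were 2 sites with 4 and 3, and in the coding part of exon 21 there were 4 with 5, 3, 3 and 3. The other 15 exons, with 62 RAC cytosines, had none. In all, 8 of 93 RAC cytosines of the CDS were listed, or 8.60% (3.79 to 16.2), against 3.03% (0.991 to 6.93) in Grin2a and 11.0% (6.56 to 17.1) in Grin2b. The interval of Grin1 overlapped that of either GluN2 gene.

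The 3' UTR sites of Grin2b ran over its whole length. The nearest to the stop codon lay 100 nt after it and the farthest 18750 nt after it, 115 nt short of the annotated end. Counted in bins of 1 kb, 17 of 19 bins held a site. The bin from 2 to 3 kb held the most, 15 sites, among them the counts of 125 at 2599 nt and 64 at 2311 nt. A second group of 13 sites lay between 13 and 14 kb, with counts of at most 17, and the last bin held 8 with counts up to 25. Counts of 51 at 6002 nt, 25 at 7587 nt, 46 at 15070 nt and 123 at 17734 nt lay outside these bins. High counts thus occurred both inside the groups and apart from them. The widest stretch without a site ran 1987 nt, from 7587 to 9574 nt.

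In Grin2a the 3' UTR sites began farther from the stop codon. The nearest lay 1015 nt after it, 10 of the 20 lay between 1 and 2 kb, and 4 of 10 bins had none. Its leading counts were 80 at 5452 nt, 38 at 4211 nt, 25 at 1199 nt, 19 at 1498 nt and 15 at 4193 nt. From 5652 nt on there was a stretch of 2516 nt without a site, and the 4 sites beyond it had counts of 3 or 4. Of the 230 RAC cytosines in this 3' UTR 14 were listed, or 6.09% (3.37 to 10.0), against 47 of 423 in Grin2b, 11.1% (8.28 to 14.5). Grin1 had 6 of 22 listed, 27.3% (10.7 to 50.2), led by counts of 29 at 781 nt and 24 at 733 nt. Its other 3' UTR sites had counts from 3 to 9. Across all listed genes 5.34% of the 3' UTR RAC cytosines were listed, a share that lies inside the interval of Grin2a and below those of Grin2b and Grin1. It pools genes with a median of 2 sites per symbol, against 97 in Grin2b, 26 in Grin2a and 22 in Grin1. Whether a share above it is particular to the 3' UTR was not tested.

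**Figure D5:**
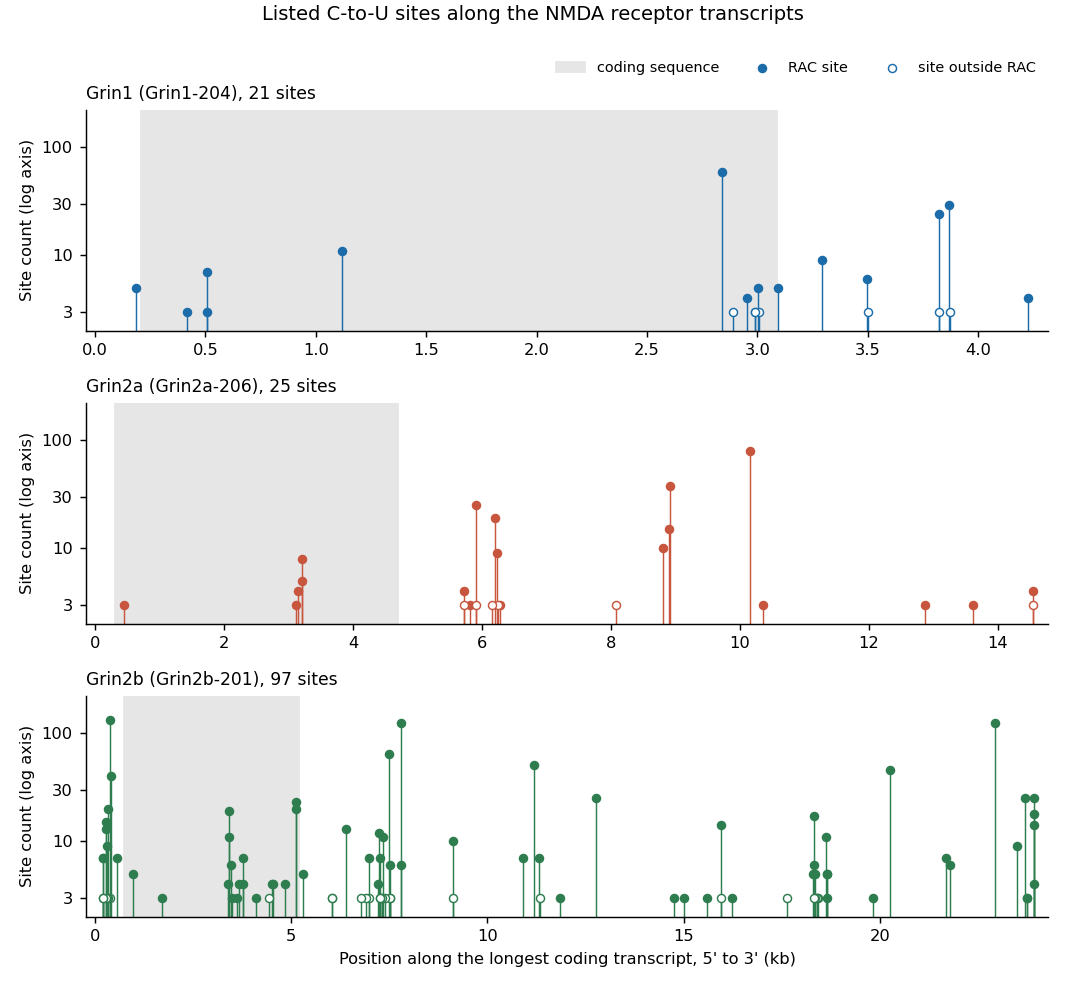
Site count (vertical log axis) along the longest coding transcript (horizontal axis, kb from the 5' end) of Grin1, Grin2a and Grin2b, with the coding sequence shaded, filled points for RAC sites and open points for sites outside RAC. In Grin2b counts above 100 occur in the 5' UTR and at 2 places of the 3' UTR, while Grin2a peaks at 80 in its 3' UTR and Grin1 at 59 near the end of its coding sequence.

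The members differed in how many of their sites lay near the stop codon. Within 400 nt of the end of the stop codon lay 4 of 97 sites of Grin2b, 4.12% (1.13 to 10.2), and 0 of the 25 sites of Grin2a on this transcript, where the interval reaches 13.7%. Grin1 had 9 of 21 there, or 42.9% (21.8 to 66.0). Among the AMPA receptor genes Gria2 had 12 of 88 sites in the window, Gria1 17 of 23 and Gria3 30 of 65. Of all other listed sites 30.3% (29.8 to 30.9) lay there. The window takes up a smaller part of the long GluN2 transcripts than of Grin1-204. At the median, sites of Grin2b lay 2143 nt downstream of the stop codon and those of Grin2a 1534 nt downstream, while in Grin1 the median was 84 nt upstream.

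Last exons held most sites of each gene. In Grin2b 80 of 97 sites lay in exon 14, or 82.5% (73.4 to 89.4), where that exon is 86.1% of the transcript. In Grin2a 24 of 25 did, 96.0% (79.6 to 99.9), where it is 80.1%. In Grin1 13 of 21 lay in exon 21, 61.9% (38.4 to 81.9), which is 30.5% of its transcript. The share over all other listed sites was 70.1%. Thus the GluN2 intervals include the share of length that the last exon takes, and that of Grin1 lies above it with all sites counted. With RAC sites only, or with sites within 10 nt merged, the last exon held 8 of 15 Grin1 sites (26.6 to 78.7), and at a count of 4 or more 7 of 12 (27.7 to 84.8), intervals that include that length share.

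The contexts of the sites followed an edge that runs through the list. Of the 145 sites 109 lay in RAC, or 75.2% (67.3 to 82.0), against 77.8% (77.3 to 78.3) of all other listed sites. All 36 sites outside RAC had a count of 3, the lowest in the list. So did every site outside RAC among the 28317 of 28412 listed sites with sequence. Whether a filter set this edge was not tested, since the sources do not state the filters. The RAC share was 75.3% in Grin2b, 76.9% in Grin2a and 72.7% in Grin1, and each gene's interval includes the shares of the other two.

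DRACH held 63 of the members' 109 RAC sites, or 57.8% (48.0 to 67.2), against 71.0% (70.4 to 71.6) of the RAC sites of the whole list. The difference was not tested, as these sites come from 3 genes. By gene the share was 61.6% in Grin2b (49.5 to 72.8), 60.0% in Grin2a (36.1 to 80.9) and 37.5% in Grin1 (15.2 to 64.6). A C before the RAC core, which breaks DRACH, occurred at 29 of the 109, or 26.6% (18.6 to 35.9), against 16.3% in the whole list. A G after it occurred at 21, or 19.3% (12.3 to 27.9), against 15.3%, and at 8 of the 16 RAC sites of Grin1. The motif GGACT, often named as the best m6A substrate, was found at 0 of the 109 sites, where the interval reaches 3.33%, and at 1.72% of RAC sites in the list.

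Many sites stood close together, and 51.7% (43.3 to 60.1) of the members' sites had another listed site within 10 nt. In Grin2b 55 of 97 sites had another listed site within 10 nt, or 56.7% (46.3 to 66.7), in Grin1 12 of 22 and in Grin2a 8 of 26, or 30.8% (14.3 to 51.8). The share over all other listed sites was 48.3%. Of the 36 sites outside RAC, 27 lay within 10 nt of a RAC site of the same gene and 6 directly beside one. These counts were not taken over the rest of the list, so whether they are particular to these genes was not tested. The site at 396 nt of Grin2b, for example, stood directly beside the leading site of the gene. Merging sites within 10 nt left 66 in Grin2b, 22 in Grin2a and 16 in Grin1.

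Genes with the most similar spread of sites were sought over 4 classes: 5' UTR, upstream and downstream part of the CDS, and 3' UTR. The distance between profiles runs from 0 for identical to 1 for disjoint, and 300 other genes had the 20 sites needed. For Grin2b, with 15, 2, 16 and 64 sites in these classes, the 3 nearest included Atp2b4, a calcium pump gene, at 0.0576 and Mef2c, a transcription factor gene, at 0.0823, where the median distance to all 300 was 0.314. For Grin2a the nearest were Cadm3 at 0.0148, and Myo5a and Prnp at 0.0182 each, with a median of 0.187. For Grin1 they were Shank1 at 0.0704, Atp2b1 at 0.0711 and Lingo1 at 0.0714, with a median of 0.429. These distances describe 1 list and rest on as few as 21 sites for Grin1 and 25 for Grin2a.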

How the data were processed

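The submitters' processing notes name STAR 2.7.5 and the build mm10, and the series text names Bullseye as the pipeline for C-to-U sites. What the authors deposited is 1 list with a whole-number count per site, made with filters, and with a use of the mutant fusion, that the sources do not state. The list was split by gene symbol. Sites were placed on GENCODE M21, whose coordinates are those of mm10, by symbol for 27873 sites, by position for 496, and 43 fell outside genes. As a check of strand and offset, 28316 of 28317 sites with sequence had a C. Where transcripts differed, a 3' UTR took precedence over CDS, CDS over 5' UTR, and any of them over noncoding exons and introns, and distances used the longest coding transcript. Computation used Python 3.11.15, pandas 2.3.3, SciPy 1.17.1 and Biopython 1.88, and placement was tested on simulated data. The members, the lists and the 5' end of Grin2b were chosen with earlier results of these data known. Genes named besides the members come from 4 lists (NMDA, AMPA, and kainate and delta receptors, and receptor partners) or are among the 3 most alike per member, and some of these are not reported here. Tulp4, Syt1 and the genes on the opposite strand were added after values were seen. Depth is unknown, and tissue could not be checked against markers without expression values.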

Additional observations from a re-analysis of the deposited data

How the results depend on the processing

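Leaving out sites with a count of 3 left 56 sites in Grin2b, 12 in Grin2a and 12 in Grin1. It took the median count to 8 in Grin2b and 9.5 in Grin2a, and the first 1000 nt of Grin2b to 10 sites. These shifts follow from leaving out the lowest count. With RAC sites only, the median of Grin2b was 7 and its first 1000 nt again held 10. With DRACH in place of RAC, the motif share was 46.4% in Grin2b, 46.2% in Grin2a and 27.3% in Grin1, as DRACH is the narrower motif. At a count of 3 the RAC share was 41.5% in Grin2b, 57.1% in Grin2a and 40.0% in Grin1, against 45.8% in the whole list. Merging sites within 10 nt, putting CDS before 3' UTR, using the longest coding transcript alone, and the narrower or wider windows moved no value beyond its interval, or a number of sites by over 1.5 times. The Grin1 shares in the CDS and the last exon no longer stood apart from the list or from exon length with sites merged, RAC sites only or a count of 4 or more, where fewer sites enter. Which molecules the counts stand for, and depth, limit all counts. No paired analysis was possible because no sample, group or replicate is named beside the sites.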

Other observations

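Sites were also listed on the strand opposite Grin1 and Grin2b. Grin1os, an antisense gene at 25291220 to 25298925 of chromosome 2, had 2 sites on the plus strand, with counts of 9 at 25298310 and 3 at 25298442. Both positions lie in coding exons of Grin1, which itself had no listed site in those exons. Of the 22 sites of Grin1, 1 lies in an exon of Grin1os. Opposite Grin2b, the lincRNA gene Gm14329 at 135732870 to 135744311 of chromosome 6 had 1 site on the plus strand, with a count of 56 at 135743896, in an intron of Grin2b-201. Of the Grin2b sites 10 lie within its span and 0 in its exons. The Grin1os and Gm14329 sites each have a C in RAC on the plus strand, where the minus strand of Grin1 and Grin2b has a G. The sources do not state whether reads were assigned by strand, and the gene of origin was not tested.

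The coding sequences of Grin2a and Grin2b were aligned by codon to see whether the same places were listed in both. Of 1425 aligned codons 56.6% encode the same residue. Grin2a has 5 coding sites and Grin2b 18, and none of the 5 was listed at the aligned place in Grin2b, where 2 of the 5 also have a cytosine. The nearest pair, with a count of 5 in Grin2a, lay 1 codon apart from a listed codon of Grin2b. This comparison was chosen after the site positions were seen, and the few sites allow no statement on conservation.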
